A study of Homo sapiens with 6 samples.

Results

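Transcripts of 10 regulators of apoptosis from the BCL2 family were followed across the 6 libraries of H358 cells, an established cell line from a human non-small cell lung carcinoma. The genes were taken by name from the deposited count table, which lists 57445 genes: the pro-survival BCL2, BCL2L1 and MCL1, the pore-forming effector BAK1, and BID, BCL2L11, PMAIP1, BMF, BIK and BAD, whose proteins carry a BH3 domain as their only family domain. All 10 were found, and 9 passed the filter on low counts; BCL2 did not. The libraries form 3 groups of 2: clone C1 and clone C2, each labelled isogenic and homozygous for the BRMS1v2 variant A273V, and WT, the parental cells, whose BRMS1 is wild type. No drug or other agent is named for any group, and all cells grew in RPMI with serum. C1 and C2 are single clones, whereas WT is the line they are set against, and neither the way the clones arose nor whether replicates of a group are separate cultures is stated. P-values therefore measure the spread between these libraries, which may be technical.

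The BCL2 family sets the threshold at which mitochondria release cytochrome c. Pro-survival members hold the effectors BAK and BAX in check, and BH3-only members bind the pro-survival proteins or the effectors and tip the balance towards pore formation. Many carcinomas rely on MCL1 and BCL-XL, the product of BCL2L1, and the BH3-only genes are controlled to a large part at the level of transcription.

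Gene counts ranged from 27527867 to 37146270 per library. BRMS1, the metastasis suppressor gene altered in the clones, held 951 and 899 counts in C1, 815 and 813 in C2, and 1341 and 1030 in WT. Its mean was 28.5 CPM (counts scaled by TMM to a common library size) in C1, 26.9 in C2 and 38.8 in WT. With the replicate number in the model, the log2 differences from WT were -0.44 in C1 and -0.53 in C2. Neither passed edgeR's test, which is described further below. Gene counts do not show the allele. All 6 epithelial markers examined were expressed. Their summed level was 6083 to 7341 CPM in the clones and 5146 to 5579 CPM in WT, and was not tested. Single genes lay wholly higher in the clones for 11.8% of all tested genes. In C1 all 6 means were above WT. In C2 those of EPCAM, KRT8, KRT18 and KRT19 were above WT and those of CDH1 and KRT7 below it. The lung lineage factor NKX2-1 lay between 65.1 and 155 CPM, whereas the surfactant genes SFTPB, SFTPC and SFTPA1 held at most 4 counts and SCGB1A1, the club cell secretoglobin, none. The replicate number marked a large difference that crossed the groups. Of 12 proliferation genes, 12 were lower in replicate 2 than in replicate 1 of C1, of C2 and of WT, with sums of 309, 927 and 1035 CPM in replicate 2 and 2544, 2918 and 2517 CPM in replicate 1, and 3 of them (MCM2, PCNA and RRM2) passed the test.

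Of the 10 genes, 3 passed the test as higher in replicate 2 (BMF, PMAIP1 and BCL2L11, described further below), and their promoters are shown because they are the members called together. Each line runs from 250 bases before to 50 bases after the annotated start, 5′ to 3′ on the gene's strand, from RefSeq on GRCh38.p14. The BMF window is chr15:40106917-40107216 on the minus strand, the PMAIP1 window chr18:59899746-59900045 on the plus strand, and the BCL2L11 window chr2:111120664-111120963 on the plus strand. Capitals mark matches, on either strand, to any of 6 motifs.
BMF: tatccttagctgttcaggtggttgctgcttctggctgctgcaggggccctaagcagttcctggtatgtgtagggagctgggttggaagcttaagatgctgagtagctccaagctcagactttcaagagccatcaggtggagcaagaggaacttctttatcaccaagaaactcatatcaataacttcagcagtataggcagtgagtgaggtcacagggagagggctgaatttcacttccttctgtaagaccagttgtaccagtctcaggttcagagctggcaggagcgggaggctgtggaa
PMAIP1: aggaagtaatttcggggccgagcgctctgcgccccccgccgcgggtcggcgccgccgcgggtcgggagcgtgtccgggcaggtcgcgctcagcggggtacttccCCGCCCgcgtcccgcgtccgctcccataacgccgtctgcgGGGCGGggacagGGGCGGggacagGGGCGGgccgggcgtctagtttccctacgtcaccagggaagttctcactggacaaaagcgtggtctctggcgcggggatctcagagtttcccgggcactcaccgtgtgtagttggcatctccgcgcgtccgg
BCL2L11: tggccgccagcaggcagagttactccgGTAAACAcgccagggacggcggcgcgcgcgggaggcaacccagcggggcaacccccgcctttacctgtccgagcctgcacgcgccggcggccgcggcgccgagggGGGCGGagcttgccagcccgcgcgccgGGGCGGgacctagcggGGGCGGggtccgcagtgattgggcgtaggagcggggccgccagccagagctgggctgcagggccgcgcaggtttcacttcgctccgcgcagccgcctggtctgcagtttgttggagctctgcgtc
The motifs were AP-1 (TGANTCA), FOXO (GTAAACA), CRE (TGACGTCA), E2F (TTTNGCGC), the E-box (CACGTG) and the GC box (GGGCGG), and none of these strings contains another. Among 35116 promoters of the same length, 7.71%, 3.42%, 1.85%, 1.79%, 7.26% and 45% held them, in that order. The BCL2L11 window held 1 FOXO match and 3 GC boxes, the PMAIP1 window 4 GC boxes, and the BMF window none of the 6. No AP-1 match, the motif bound by FOS and JUN dimers, occurred in the windows of the 8 family genes that the table holds; MCL1 and BIK have no entry. GC content was 50.3% in the BMF window, 71.3% in PMAIP1 and 74.7% in BCL2L11. The counts were made on hg19, so these coordinates are not those of the counted reads.

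Per length, MCL1 was the most abundant member, and BCL2 was practically silent. Levels between genes are given as CPM per kb of exon, with exon lengths from GENCODE 29. BCL2, the founding pro-survival gene, held 0 counts in both C1 libraries, 0 in both C2 libraries, and 1 and 0 in WT. Taking 3 counts as the limit that a count of 0 allows, its level lay below 0.0848 and 0.1 CPM in C1 and below 0.105 and 0.0928 CPM in C2, and below 0.101 CPM in WT replicate 2; these limits cover counting error only. No difference between groups can be given for it.

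MCL1 (ENSG00000143384.8), a short-lived pro-survival protein that binds BAK, averaged 164 ± 31.4 CPM per kb in C1, 157 ± 10.6 in C2 and 129 ± 21.3 in WT (SD, n = 2 each). BCL2L1 (ENSG00000171552.8), which encodes BCL-XL, followed with 85.5 ± 3 in C1, 89.7 ± 7.57 in C2 and 93.1 ± 4.5 CPM per kb in WT. Over the 6 libraries, the lowest MCL1 level per length (114) lay above the highest BCL2L1 level (96.3). This order depends on lengths that count every annotated exon, and the BCL2L1 count is uncertain, as given below. PMAIP1 came next, with library levels from 35.5 to 71.8 CPM per kb, and BAK1 after it, from 19.2 to 28.1, again without overlap. BIK, BAD, BID, BMF and BCL2L11 lay between 2.25 and 13.6 CPM per kb, and their ranges overlapped, so their order is not resolved. Among all tested genes MCL1, BCL2L1 and PMAIP1 stood at the 99th, 97.9th and 95.9th percentile of level per length, and BCL2L11 at the 61.3rd.

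**Figure D1:**
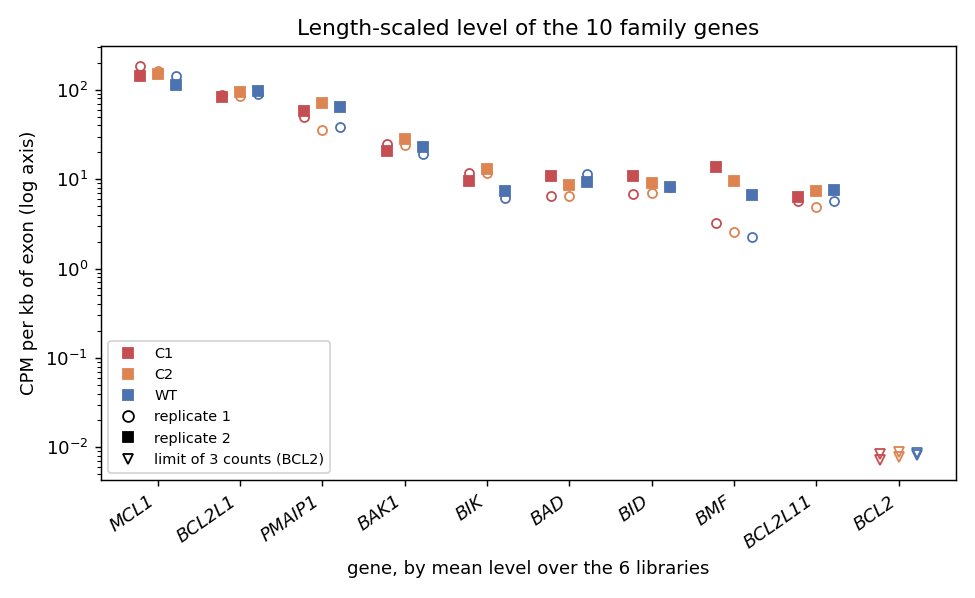
Level of the 10 genes per length in each library (CPM per kb of exon, log axis), ordered by the mean over 6 libraries. Red, orange and blue are C1, C2 and WT, open circles replicate 1 and filled squares replicate 2; triangles give the limit of 3 counts for BCL2, which lies near 0.01 while MCL1 reaches 186.

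Summed over roles, the transcripts of the 3 pro-survival genes exceeded those of the 6 BH3-only genes in every library. The pro-survival sum was 274 and 226 CPM per kb in C1, 249 and 244 in C2, and 234 and 210.3 in WT. C1 and WT overlapped, while both C2 libraries lay above WT. How many of all genes split in that way was not computed. MCL1 made up the larger part of this sum, and the BCL2L1 mean was lower in C2 (89.7) than in WT (93.1). The BH3-only sum was 84.3 and 109 in C1, 68.3 and 119 in C2, and 72.4 and 103 in WT, where each clone overlapped WT. These sums were not tested, count transcripts only and say nothing of protein.

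The clones were set against WT with edgeR's quasi-likelihood test over 17129 genes, with Benjamini-Hochberg adjustment over all of them; a gene is called where the adjusted p is below 0.05. Without the replicate number in the model, edgeR called 0 of the 9 tested members in C1, in C2 or in the mean of the clones, against 0.0117%, 0.0117% and 0.198% of all genes. DESeq2 called 0 as well, and 1 member (BIK) had an unadjusted p below 0.05 in each of the 3 comparisons. Adding the replicate number to the model (the blocked fit), 1 of 9 was called in C1 (BMF), 0 in C2 and 2 in the mean of the clones (BMF and BIK), all higher, against 7.03%, 4.54% and 9.74% of all genes. By direction, 2.96% of all genes were called higher and 4.07% lower in C1, 1.94% and 2.59% in C2, and 4.12% and 5.63% in the mean of the clones. With 9 genes, these counts are close to the background. In C2, 1 member (BIK) had an unadjusted blocked p below 0.05, and blocked DESeq2 called that 1. The median log2 difference of the 9 members was 0.13 in C1 and 0.03 in C2, blocked, beside -0.01 and -0.0014 over all genes. The comparisons share the WT libraries. Other transcripts moved alongside: among the 12 proliferation genes, the blocked median was -0.87 for C1 and -0.07 for C2 on the log2 scale with 0 called by edgeR, and 3 genes on the marker lists were called in the mean of the clones, EPCAM (0.50) and the endothelial CDH5 (1.54) higher and NAPSA (-0.92) lower. CDH5 stayed low, with 2.32 and 2.44 CPM in C1, 1.76 and 1.49 CPM in C2, and 1.06 and 0.337 CPM in WT. The endothelial VWF went the other way and was not called, with means of 1.01 CPM in C1, 1.05 in C2 and 1.61 in WT. NKX2-1, on the same list as NAPSA, was not called either, with means of 108, 111 and 110 CPM. The part of these transcripts in the members' values was not tested.

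BIK (ENSG00000100290.2) was higher in both clones, a difference that passed the test for the mean of the clones in the blocked fit and not in the unblocked one. It encodes a BH3-only protein of the endoplasmic reticulum. Its level was 11.3 and 9.12 CPM in C1, 11.3 and 12.3 CPM in C2, and 5.85 and 6.97 CPM in WT. All 4 clone libraries lay above both WT libraries, as they did for 11.8% of all tested genes. Without the block, edgeR put C1 at a log2 difference of 0.67 (SE 0.26, adjusted p 0.61). C2 stood at 0.88 (SE 0.26, adjusted p 0.59). For the mean of the clones it was 0.78 (SE 0.23, 95% interval 0.21 to 1.34, adjusted p 0.37). Blocked, the mean of the clones gave 0.78 (0.32 to 1.23) and passed the test (adjusted p 0.034), while C1 (0.11) and C2 (0.052) did not. The blocked call for the mean was lost without C1 replicate 1 (0.067), WT replicate 1 (0.15), C2 replicate 1 (0.18) or C2 replicate 2 (0.25), and with the minimum of 1 CPM in every library (0.058). In these bulk libraries, more cells with the transcript and more transcript per cell cannot be told apart, for this gene or the others.

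BMF (ENSG00000104081.9), a BH3-only protein held on the actin and myosin V cytoskeleton in healthy cells, rose in C1 once the replicate number was in the model. Its level was 17.6 and 74.3 CPM in C1, 13.9 and 51.6 CPM in C2, and 12.3 and 35.9 CPM in WT, with replicate 1 first. Replicate 2 of every group was above replicate 1 of every group, and the groups overlapped. Within each number, both clones lay above WT: by 0.52 and 1.05 on the log2 scale in C1, and by 0.18 and 0.52 in C2. The share of all genes with this order within each number was not computed. Blocked, edgeR gave C1 a log2 difference of 0.79 with an SE of 0.18 (95% interval 0.40 to 1.18), and it passed the test (adjusted p 0.018). The C2 value of 0.35 with an SE of 0.18 (-0.03 to 0.74) missed it (adjusted p 0.31). Without the block the values were 0.93 in C1 (-1.34 to 3.20, adjusted p 0.92) and 0.45 in C2 (-1.81 to 2.70, adjusted p 1). The blocked call in C1 was lost without C1 replicate 2 (0.18), WT replicate 2 (0.091) or either C2 library (0.14 and 0.13), and when only the C1 and WT libraries were fitted (0.13). C2 against C1 gave -0.44 blocked (SE 0.18, -0.82 to -0.05), which did not pass the test (adjusted p 1). For the mean of the clones the blocked value was 0.57 (adjusted p 0.038, and 0.88 without the block); this call was lost without either C2 library, C1 replicate 2 or WT replicate 2 (0.091 to 0.32) and with at least 1 CPM in every library (0.069).

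**Figure D2:**
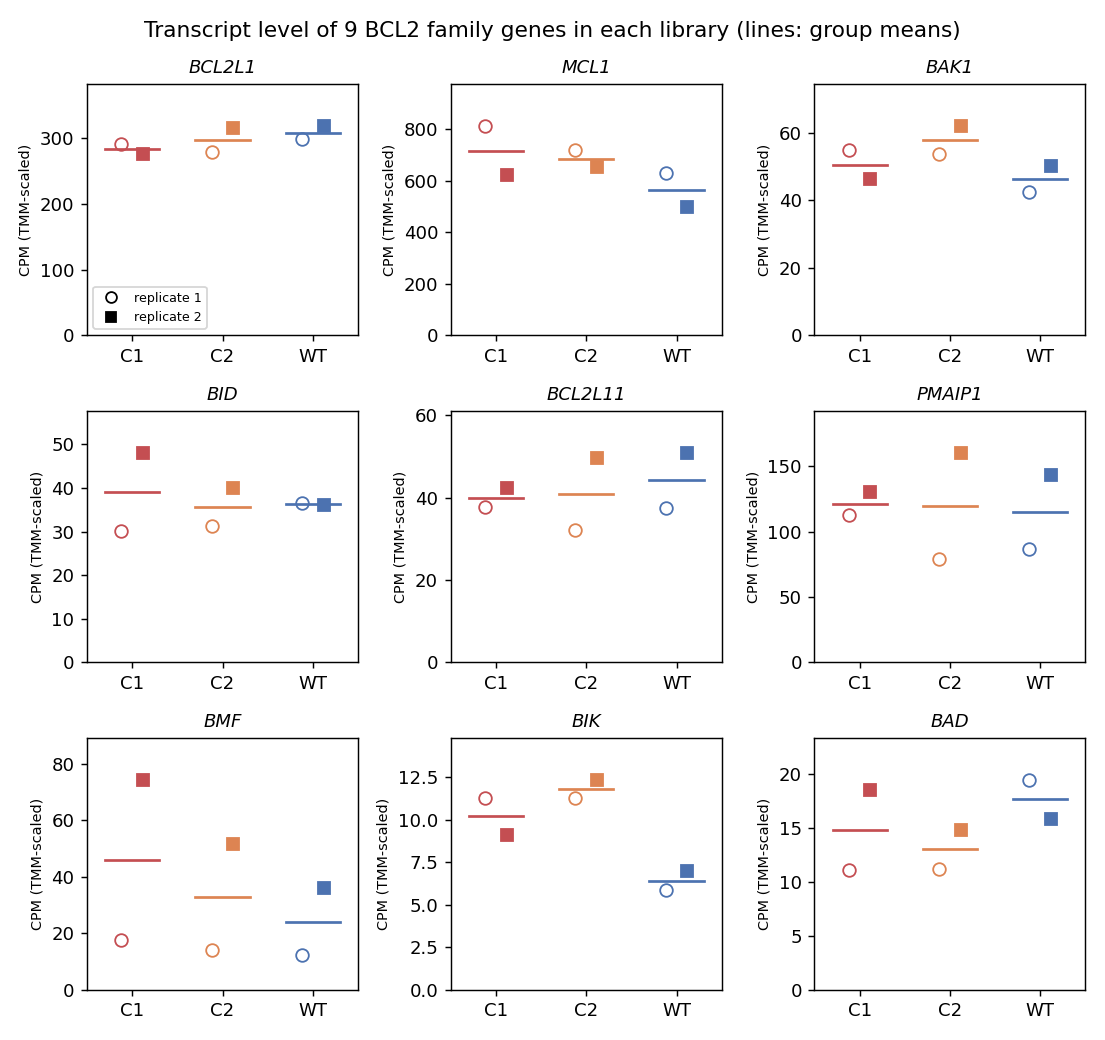
TMM-scaled CPM of the 9 tested members in each library (axes start at 0), with C1, C2 and WT from left to right; open circles are replicate 1, filled squares replicate 2 and lines group means. BIK is higher in all 4 clone libraries (9.12 to 12.3) than in WT (5.85 and 6.97), and BMF is higher in replicate 2 of each group.

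The pro-survival members with counts, MCL1 and BCL2L1, missed the threshold in C1 and in C2. MCL1 had 815 and 621 CPM in C1, 719 and 653 CPM in C2, and 630.0 and 498 CPM in WT. At equal replicate number each clone library lay above its WT library, a pattern whose share among all genes was not computed. C1 replicate 2 lay below WT replicate 1, so C1 and WT overlapped. Blocked, C1 stood 0.35 above WT on the log2 scale, with a 95% interval of 0.04 to 0.65 (adjusted p 0.17 in edgeR). C2 stood 0.29 above it, with an interval of -0.01 to 0.59 (adjusted p 0.28). BCL2L1 was the steadiest member, with 291 and 276 CPM in C1, 279 and 315 CPM in C2, and 298 and 319 CPM in WT. Its highest library was 1.15-fold above its lowest. The blocked log2 difference of C1 was -0.12 with an interval of -0.42 to 0.18 (adjusted p 0.69 in edgeR), and that of C2 was -0.06 with an interval of -0.36 to 0.25 (adjusted p 0.88). Of the BCL2L1 exonic bases in GENCODE 29, 43% are shared with ABALON on the other strand. Matched by ID, ABALON has no row in the count table. The strand setting of the counting is not given in the sources used here, so the BCL2L1 count is uncertain.

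BAK1 (ENSG00000030110.8), the effector that forms pores in the outer mitochondrial membrane, had 54.9 and 46.2 CPM in C1, 53.8 and 62.1 CPM in C2, and 42.5 and 50.2 CPM in WT. Both C2 libraries lay above both WT libraries, and C1 overlapped WT. The share of all genes with such a split in C2 was not computed. For C1 the blocked log2 difference was 0.13 (-0.24 to 0.50), with adjusted p 0.72 in edgeR. For C2 it was 0.32 (-0.05 to 0.69), with adjusted p 0.34. The pseudogene BAK1P1 held 22 to 38 counts per library, so how reads were split between the pair is uncertain. Per length, BCL2L1 over BAK1 was 3.54 and 3.99 in C1, 3.46 and 3.38 in C2, and 4.68 and 4.24 in WT. All 4 clone libraries lay below both WT libraries, as they did for the level of 12% of all tested genes. The share among ratios of other gene pairs was not computed. MCL1 over BAK1 overlapped between the clones and WT. Neither ratio was tested.

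The remaining BH3-only members, BAD, BID, BCL2L11 and PMAIP1, missed the threshold against WT in C1 and in C2. BAD (ENSG00000002330.9), which binds BCL-XL and is restrained by phosphorylation and 14-3-3 proteins, had 11 and 18.5 CPM in C1, 11.2 and 14.8 CPM in C2, and 19.4 and 15.8 CPM in WT. Both C2 libraries lay below both WT libraries, while C1 overlapped WT. How many of all genes split in this way in C2 was not computed. The blocked log2 differences were -0.30 (-0.85 to 0.24, adjusted p 0.54 in edgeR) in C1 and -0.47 (-1.01 to 0.07, adjusted p 0.34) in C2. Without WT replicate 2 the blocked C2 value passed the test (-0.88, adjusted p 0.018), and without WT replicate 1 it was -0.0033. Of its exonic bases, 23.7% are shared with GPR137 on the other strand, so the counts of both are uncertain. GPR137 had 17.4 and 37.8 CPM in C1, 19.1 and 26.5 CPM in C2, and 21.6 and 24 CPM in WT, and its part in the BAD values was not tested. BAD lies before BRMS1 on chromosome 11. Among genes with a mean log2 CPM above 2, the 359 before BRMS1 had a median blocked log2 difference of -0.01 for the mean of the clones. The 300 genes beyond BRMS1 had -0.37. The part of position in the BAD values was not tested.

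BID (ENSG00000015475.14), which caspase-8 cleaves to link death receptors to mitochondria, had 30.2 and 48.1 CPM in C1, 31.3 and 40.1 CPM in C2, and 36.6 and 36.1 CPM in WT. WT lay between the libraries of each clone. BCL2L11, which encodes the broad pro-survival binder BIM, and PMAIP1, which encodes the MCL1 antagonist NOXA, gave blocked log2 differences of -0.12 and 0.13 in C1 and of -0.12 and 0.03 in C2. The lowest adjusted p among BID, BCL2L11 and PMAIP1 was 0.74 in edgeR.

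**Figure D3:**
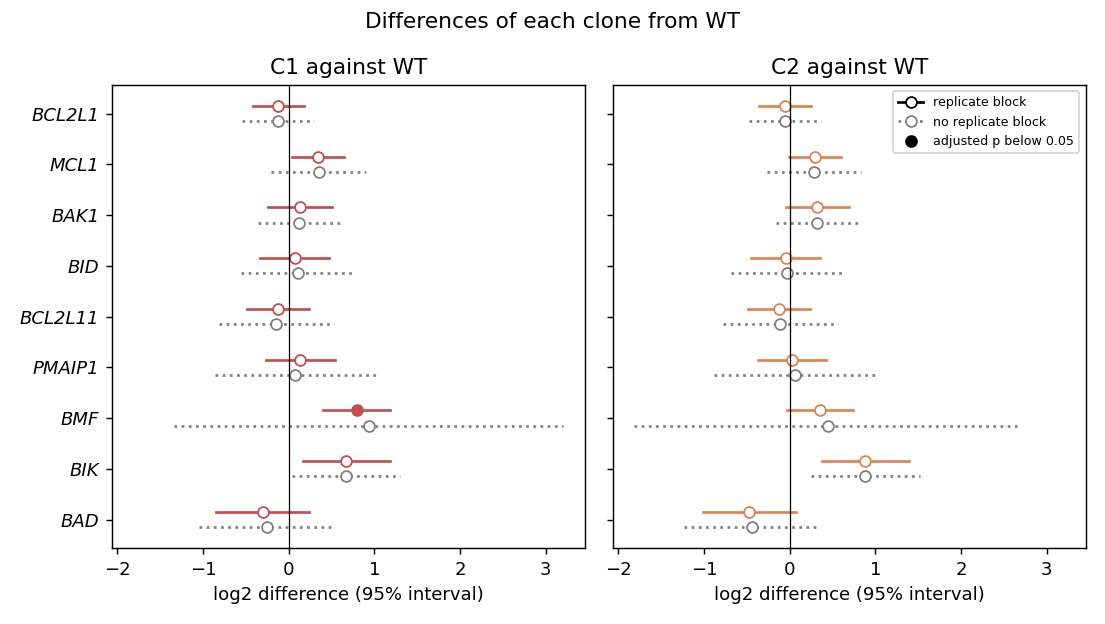
Log2 difference of each clone from WT for the 9 tested members, with 95% intervals; solid lines are from the fit with the replicate block and dotted grey lines from the fit without it. BMF in C1 is the only filled point (adjusted p below 0.05), and the dotted BMF intervals are the widest.

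C2 and C1 carry the same genotype in the labels. For C2 against C1, edgeR called 0 of 9 members with or without the block, as of all genes (0% called), and 0 members without the block and 1 with it (BMF) had an unadjusted p below 0.05. DESeq2 called 0 members in either model. Apart from BMF, the blocked log2 differences of C2 against C1 lay between -0.17 (BAD, -0.71 to 0.37) and 0.21 (BIK, -0.29 to 0.71).

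In replicate 2, 3 of 9 members rose, all of them BH3-only genes (BMF, PMAIP1 and BCL2L11), and 0 fell by edgeR's test, against 12.5% of all genes called higher and 12.2% called lower. Over all genes 24.7% were called, so 3 of 9 is near the background. The median log2 difference of the members was 0.28, beside 0.0032 for all genes. What the number marks is not stated, and proliferation genes were lower in the same libraries, as given above; their part in these values was not tested. Markers of other cell types also moved. The summed level of 4 fibroblast genes was 36.9 to 57.2 CPM in replicate 2 and 25.9 to 35.6 CPM in replicate 1, nearly all of it COL1A1, with COL1A2, DCN and PDGFRB at 0 to 4 counts, and that of 4 leukocyte genes was 3.68 to 4.31 CPM in replicate 2 and 2 to 3.07 CPM in replicate 1. Of these lists COL1A1 and CD14 were called higher, and CD3E held 0 to 5 counts.

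BMF showed the widest range, 6.05-fold between its lowest and highest library. It had 74.3, 51.6 and 35.9 CPM in replicate 2 of C1, C2 and WT, and 17.6, 13.9 and 12.3 CPM in replicate 1. The log2 difference was 2.07 within C1, 1.88 within C2 and 1.54 within WT. The fit gave 1.84 (SE 0.15, 95% interval 1.52 to 2.16, adjusted p 5.4e-06 in edgeR). Whether this step differs between groups was not tested, since 1 library per group and number leaves no residual spread. BCL2L1, whose product BMF binds, exceeded BMF per length by 6.12-fold, 10.0-fold and 14.6-fold in replicate 2 of C1, C2 and WT, and by 27.1-fold, 33-fold and 39.9-fold in replicate 1.

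PMAIP1 (ENSG00000141682.11) had 130.2, 160.4 and 143 CPM in replicate 2 of C1, C2 and WT, and 112, 79.3 and 86.7 CPM in replicate 1. The numbers did not overlap; replicate 2 lay wholly above replicate 1 for 17% of all tested genes and wholly below it for 18.4%, and the step was smallest in C1. The fit gave a log2 difference of 0.65 (SE 0.15, 0.32 to 0.98, adjusted p 0.0087 in edgeR). MCL1, whose product NOXA binds, did not pass the test; its log2 difference was -0.29 (-0.54 to -0.04, adjusted p 0.083). MCL1 over PMAIP1 per length was 2.44, 2.08 and 1.78 in replicate 2 of C1, C2 and WT, and 3.71, 4.63 and 3.71 in replicate 1.

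BCL2L11 (ENSG00000153094.17) had 42.4, 49.8 and 50.9 CPM in replicate 2 of C1, C2 and WT, and 37.7, 32.1 and 37.5 CPM in replicate 1. These values did not overlap either. The log2 difference was 0.41 (SE 0.14, 0.11 to 0.71, adjusted p 0.045 in edgeR). The overlapping MIR4435-2HG, on the other strand and sharing 10.9% of the BCL2L11 exonic bases, moved the opposite way, with 26.5, 37.9 and 37.1 CPM in replicate 2 and 58.7, 56.9 and 48.4 CPM in replicate 1. Without C2 replicate 1 or C2 replicate 2 the PMAIP1 call (adjusted p 0.17 in both) and the BCL2L11 call (0.32 and 0.31) were lost, and the BMF call was kept (0.022 and 0.019). Without WT replicate 1 or 2, BID and BAD were called as well, both higher.

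**Figure D4:**
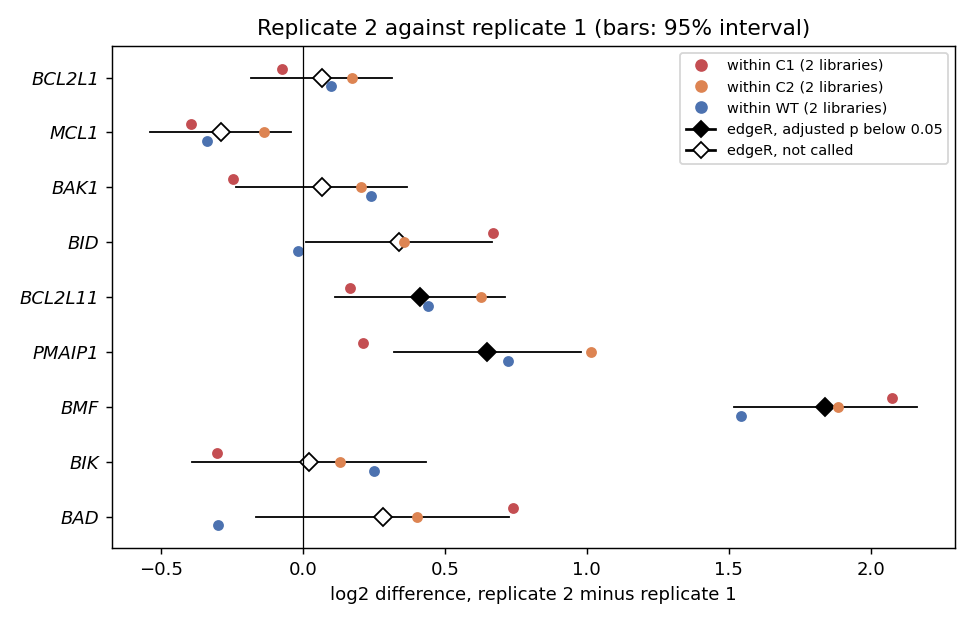
Log2 difference of replicate 2 minus replicate 1 for the 9 tested members: coloured points give the 2 libraries within C1, C2 or WT, and diamonds with bars the edgeR estimate with its 95% interval. Filled diamonds (BMF at 1.84, PMAIP1 at 0.65 and BCL2L11 at 0.41) passed the test.

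Of 5 further lists, 70 genes were tested. Without the block, edgeR and DESeq2 called 0 of them in the clones, and 6 had an unadjusted p below 0.05 in edgeR for the mean of the clones; the clone results below are blocked. With the block, 7 of the 70 were called in the mean of the clones, beside 9.74% of all genes, so the list counts are near the background. Of 13 other BCL2 family genes listed, 10 were tested; edgeR and DESeq2 called 0 in C1, in C2 or in the mean of the clones, where 0, 3 and 1 had an unadjusted p below 0.05 in edgeR. The 2 with the largest differences in the mean of the clones did not pass, at 1.39 for the NF-kappaB-induced pro-survival gene BCL2A1 (adjusted p 0.24, 2 to 25 counts per library), and -1.08 for the BH3-only HRK (0.055, 20 to 83 counts). In replicate 2, 4 of the 10 rose, 2 fell and the rest did not pass, beside 12.5% of all genes called higher and 12.2% called lower. Those that rose were the BH3-only BBC3, or PUMA (log2 difference 1.23), the effector relative BOK (0.78), and the mitophagy receptors BNIP3 (0.70) and BNIP3L (0.42). The effector BAX (-0.58) and BCL2L12 (-0.71) fell, with adjusted p from 0.0032 to 0.018 over these 6 genes in edgeR. BBC3 had 16.9, 14.8 and 12.9 CPM in replicate 2 of C1, C2 and WT, and 7.91, 3.68 and 8.12 CPM in replicate 1. BAX had 23.7, 21.7 and 21.1 CPM in replicate 2 and 28.1, 33.4 and 38.6 CPM in replicate 1, whereas the effector BAK1 did not pass (log2 difference 0.07, 95% interval -0.23 to 0.37).

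Downstream of the mitochondria, the apoptosome scaffold APAF1 rose in the mean of the clones (log2 difference 0.58, adjusted p 0.045 in edgeR). It had 27.3 and 16 CPM in C1, 30.7 and 20.9 CPM in C2, and 21.3 and 11.1 CPM in WT. At equal replicate number every clone library was above WT, and across numbers the groups overlapped. How often all genes show the former was not computed. In replicate 2, 6 of the 16 genes of the apoptosome and caspase list fell and none was called higher by edgeR. Over all genes 12.2% were called lower and 12.5% higher. Those that fell included APAF1 (-0.75), CASP2 (-0.38), CASP6 (-0.53), cytochrome c, CYCS (-0.59), and VDAC3 (-0.62). Differences of DFFA (-0.32), CASP9 (0.32) and VDAC2 (0.25) in the mean of the clones did not pass.

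Among 5 tested inhibitor of apoptosis genes, BIRC3, which encodes cIAP2, fell in both clones. It had 13.7 and 9.59 CPM in C1, 17.3 and 10.3 CPM in C2, and 26.4 and 24.2 CPM in WT, with a log2 difference of -1.14 for C1 (adjusted p 0.0061 in edgeR) and -0.92 for C2 (0.028). All 4 clone libraries lay below both WT libraries, as for 12% of all genes. BIRC2 (-0.38), survivin, BIRC5 (-0.52), and XIAP (0.25) did not pass in the mean of the clones, and BIRC6 rose in replicate 2 (0.60). BIRC2 and BIRC3 lie beyond BRMS1 on chromosome 11, as does FADD, a gene of the death receptor pathway. The 300 genes counted there had a median of -0.37 in the mean of the clones. The part of position in the values of these genes was not tested.

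In the death receptor pathway, 1 of 13 tested genes rose and 1 fell in the mean of the clones, beside 4.12% of all genes called higher and 5.63% called lower. RIPK1, a kinase of the TNF receptor complex, had 62.3 and 74.2 CPM in C1, 66.2 and 82 CPM in C2, and 41.2 and 51 CPM in WT. All 4 clone libraries lay above both WT libraries, as for 11.8% of all tested genes. Its log2 difference was 0.57 for C1 (adjusted p 0.038 in edgeR) and 0.68 for C2 (0.022). The initiator CASP10 (-0.78, adjusted p 0.044) fell in the mean of the clones and was called in neither clone alone. TRADD (-0.36), FADD (-0.27) and CASP8 (-0.26) did not pass. In replicate 2 the decoy receptors TNFRSF10C (0.81) and TNFRSF10D (0.53) rose and FAS (-0.80) fell.

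Of 26 tested regulators of the family, 0 rose and 2 fell in the mean of the clones, where 4.12% of all genes were called higher and 5.63% lower. SFN, a 14-3-3 protein, had a log2 difference of -1.04 (adjusted p 0.0058 in edgeR), with 73.8 and 43.6 CPM in C1, 86.8 and 75 CPM in C2, and 209.7 and 91.1 CPM in WT. TRIB3, a stress-induced pseudokinase, had -0.72 (adjusted p 0.016). TRIB3 had 105 and 167 CPM in C1, 46.6 and 106 CPM in C2, and 93.7 and 268 CPM in WT, and it was called in C2 (-1.18) and not in C1 (-0.25). The transcription factor genes TP63 (-1.17) and TP73 (-0.75) and the stress factor DDIT3 (-0.36) did not pass. In replicate 2, 3 of 26 rose and 9 fell, beside 12.5% of all genes called higher and 12.2% called lower. E2F1, a driver of S phase (-1.46), and the 14-3-3 genes YWHAB (-0.39), YWHAQ (-0.57) and YWHAZ (-0.48) fell. FOXO3, named after its values were seen, rose (0.49, adjusted p 0.019 in edgeR), with 52.2, 59.7 and 58.8 CPM in replicate 2 and 43.8, 41.3 and 37 CPM in replicate 1. The BCL2L11 window held a FOXO match, and the BMF and PMAIP1 windows held none. A link between FOXO3 and any member was not tested.

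Genes whose pattern over the 6 libraries was most like that of a member were found by the root mean square difference of centred log2 CPM, for the 2 members with the smallest unadjusted p in the mean of the clones without the block. For BIK these were PCTP (0.0871), HLA-V (0.0889) and NCALD (0.101), where the median over all genes was 0.456. For MCL1 they included TOP1 (0.0304) and UPRT (0.0381), with a median of 0.318. These genes were picked as the nearest of all over 6 libraries, so they lie below the median by choice. Shared regulation was not tested.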

How the data were processed

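RNA was sequenced in 6 libraries of H358. The authors deposited 1 table of raw counts, with a column for each library, per the file headers. Tools listed in the submitters' processing notes are cutadapt 1.6, STAR 2.5.0a and HTSeq 0.5.3, with the build hg19; the annotation release and the strand setting are not given in the sources used here. Reads in genes made up 77.6% to 78.7% of the reads listed; 5 rows of HTSeq totals stayed out of library sizes and tests. Replicates of a group were not copies (chi-square per gene of 90.7 or more).

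The count analysis ran in R 4.3.3 and edgeR 4.0.16: filterByExpr over the 3 groups kept 17129 genes, libraries were scaled by TMM, and log2 CPM used a prior count of 2. All 6 libraries entered 1 quasi-likelihood fit with robust dispersion, with Benjamini-Hochberg adjustment over all genes and intervals at 95%, unadjusted for the number of genes. Replicate 2 against replicate 1 was fitted with group as a term. The code was tested on simulated data. Deviations of same-numbered libraries from their group means correlated by 0.585 (WT and C1), 0.634 (WT and C2) and 0.703 (C1 and C2), so equal numbers were treated as pairs. The labels do not state this pairing. With 2 libraries per group, 1 dominant source of variation could give such correlations to arbitrary numbers as well, and the blocked calls rest on it. Blocked values add the replicate number to the model. DESeq2 1.42.0, its size factors, other filters, fitting only the groups compared and leaving out each library were alternatives. Sharing of exonic bases, lengths and gene order came from GENCODE 29, matched by stable ID for 97.3% of tested genes.

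Named genes are the 10 members throughout. Of each further list, up to 6 genes called in any comparison and up to 3 with the largest difference in the mean of the clones are named. The members and lists were chosen with earlier results of these data known. Results for some listed genes are not reported here.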

Additional observations from a re-analysis of the deposited data

How the results depend on the processing

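With 2 libraries per group, counts of calls depended on the replicate block more than on any scaling. Under no setting did the median log2 difference of all genes lie further than 0.04 from 0. Counts of all genes called by edgeR were 2 (C1), 2 (C2), 34 (mean of the clones) and 0 (C2 against C1) without the block, and 1204, 777, 1669 and 0 with it. In this order of the first 3 comparisons, DESeq2 called 270, 209 and 393 genes, no filter on low counts gave 296, 209 and 436, and at least 1 CPM in every library gave 0 in each. Fitting only the groups compared called 1 gene in C1 and 0 in C2. Settings combined with the block were chosen after seeing the data. With it, DESeq2 size factors gave 1193, 760 and 1655 genes, DESeq2 1158, 839 and 1520, no filter 2074, 1550 and 2598, at least 1 CPM 550, 288 and 867, and only the groups compared 253 in C1 and 1723 in C2. For C2 against C1 the blocked counts were 20 with DESeq2, 90 with no filter and 25 with only the groups compared. Leaving out 1 library gave, without the block, 0 to 1 genes in C1, 0 in C2, 0 to 3 in the mean of the clones and 0 in C2 against C1, and with it 178 to 1776, 2 to 1756, 208 to 2277 and 0 to 343. In replicate 2 against replicate 1 it gave 617 to 4849; the lowest of these, 617 and 730, were without C2 replicate 1 and C2 replicate 2. The cause was not tested.

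Of the members, 0 were called in C1 without the block and 1 (BMF) with it, also with the block and DESeq2 size factors, DESeq2, no filter or at least 1 CPM. In C2 0 were called in either fit, and 1 (BIK) with the block and DESeq2, no filter or only the groups compared. In the mean of the clones 0 were called without the block and 2 (BMF and BIK) with it, also with DESeq2 size factors, DESeq2 or no filter. Leaving out 1 library gave 0 members in each clone comparison without the block, and with it 0 to 1 in C1, 0 to 2 in C2 and 0 to 2 in the mean of the clones; it gave 1 to 5 in replicate 2 against replicate 1. BMF, PMAIP1 and BCL2L11 in replicate 2 were called under all 4 alternatives that kept the 6 libraries.

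Signs near 0 turned when 1 library was left out. Ranges of the log2 difference over both fits in C1 were -0.10 to 0.37 for BAK1, -0.26 to 0.42 for BID, -0.34 to 0.10 for BCL2L11, -0.23 to 0.49 for PMAIP1, -0.44 to 1.91 for BMF and -0.72 to 0.15 for BAD. In C2 they were -0.17 to 0.037 for BCL2L1, -0.30 to 0.23 for BID, -0.48 to 0.18 for BCL2L11, -0.56 to 0.49 for PMAIP1 and -0.81 to 1.42 for BMF. In the mean of the clones they were -0.24 to 0.29 for BID, -0.32 to 0.12 for BCL2L11, -0.24 to 0.48 for PMAIP1 and -0.80 to 0.074 for BAD. For C2 against C1 they were -0.050 to 0.15 for BCL2L1, -0.25 to 0.12 for MCL1, -0.035 to 0.42 for BAK1, -0.45 to 0.24 for BID, -0.35 to 0.31 for BCL2L11, -0.64 to 0.40 for PMAIP1, -1.75 to 0.89 for BMF, -0.029 to 0.45 for BIK and -0.53 to 0.23 for BAD. For replicate 2 against replicate 1 they were -0.023 to 0.23 for BAK1 and -0.089 to 0.20 for BIK. With the block and at least 1 CPM in every library, PMAIP1 in C2 (-0.0022), BID in the mean of the clones (-0.022) and BCL2L11 in C2 against C1 (-0.0044) also turned. BMF in C1 turned to -0.44 without C1 replicate 2 in the fit without the block. BIK and MCL1 kept their sign in C1, in C2 and in the mean of the clones under all alternatives run.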
